A study of Mus musculus with 8 samples.

Results

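Footprints of ribosomes captured with RiboLace were set against footprints of sucrose-gradient polysomes from the same tissue, the whole brain of mice with spinal muscular atrophy (SMA) at postnatal day 5. The comparison holds 4 of the 8 libraries of the study, 2 RiboLace and 2 polysome libraries, and 21874 protein-coding genes of the 45578 genes in the table. One coding transcript stood for each gene, the one with the largest sum of library-scaled reads. All 4 libraries are labelled Smn-/-; SMN2tg/0, the Taiwanese model on a congenic FVB background, which is described as null for its own Smn and has the human SMN2 transgene on one allele. The other 4 libraries, 3 SMN immunoprecipitates and 1 IgG immunoprecipitate, came from Smn+/-; SMN2tg/0 brains of the same age. They are used below for levels, the SMN libraries for Smn1 alone, and in 1 alternative fit. Libraries of a group are named biological replicates in the labels, which do not say whether a RiboLace and a polysome library shared a brain.

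Ribosome profiling sequences the stretch of mRNA that a ribosome shields from nuclease. RiboLace pulls ribosomes from a lysate with a puromycin analogue, a compound that resembles the end of a charged tRNA and binds ribosomes competent for elongation. A sucrose gradient instead sorts by mass, and its heavy fractions hold mRNAs that carry several ribosomes whatever their activity. SMA is caused by too little SMN protein, which assembles the Sm rings of spliceosomal snRNPs and has also been found on ribosomes. At this age the mouse brain is extending axons and making synapses, so tubulin, actin and growth cone proteins are among its most translated products.

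The RiboLace libraries were shallow. Reads on coding genes totalled 47846 and 39375 in the RiboLace libraries, against 1661834 and 2295393 in the polysome libraries. A floor of 3 reads therefore stood at 62.7 and 76.2 CPM, reads per 1000000 coding reads, in the RiboLace libraries and at 1.81 and 1.31 CPM in the polysome libraries. Of the coding genes, 9824 and 9109 had a read in the RiboLace libraries, against 15949 and 16457 in the polysome libraries. The 10 most read coding genes took 6.44% and 6.67% of coding reads in RiboLace, against 2.51% and 2.24% in polysomes.

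Of 10807 genes tested, 142 (1.31%) were higher and 100 (0.925%) were lower in RiboLace than in polysomes, by edgeR's quasi-likelihood test at a Benjamini-Hochberg adjusted p under 0.05. A gene that was not called may still differ. In simulated data of these depths the test called 7 of 50 genes set 2-fold higher and 13 of 50 set 2-fold lower. Differences are given as the log2 ratio of RiboLace over polysome with its standard error (SE), and levels per gene as TMM-scaled CPM unless stated. In each of these 242 genes the 2 RiboLace libraries lay on one side of the 2 polysome libraries. The calls used the same 4 libraries, so this separation is no further support, here or for single genes below. Groups of 2 and 2 libraries separate often without a difference: an exact permutation test cannot go below p = 0.333. Genes that were not called, such as Map1b, were separated too. The median log2 fold change of all genes tested was -0.29, and it was -0.305 over the 2937 genes with a mean of at least 100 CPM. Genes called higher had a median of 50 RiboLace reads, and genes called lower a median of 3. Of the 142 higher genes, 20 had under 10 RiboLace reads. A gene with few polysome reads could enter the test through its RiboLace libraries alone, where 1 read stood at 20.9 or 25.4 CPM of the coding total. Of the 2937 genes with a mean of at least 100 CPM, 3.44% were higher and 2.79% lower. This mean includes the RiboLace libraries, so a gene high in RiboLace enters that set more easily. The same holds for the 195 genes with the highest means, of which 52 (26.67%) were higher and 1 lower. Shares of higher genes in the lists below were not matched for level. The lower calls depended most on the method and on single libraries. DESeq2 called 192 higher and 6 lower, limma-voom called 0 in either direction (825 higher and 838 lower at an unadjusted p under 0.05), and without RiboLace replicate 1 edgeR called 31 higher and 2 lower, without RiboLace replicate 2 54 higher and 1 lower.

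Smn1, the gene the genotype targets, was read in 3 of the 4 libraries labelled Smn-/-. It had 43.3 CPM from 2 reads in RiboLace replicate 1 and 0 reads in RiboLace replicate 2, against 32.1 and 34.5 CPM from 51 and 77 reads in polysomes (log2 ratio -0.53 ± 1.05 SE, adjusted p = 0.882). Scaled to the coding total, the polysome levels were 30.7 and 33.6 CPM, beside 29.0 CPM from 6 reads in the IgG library labelled Smn+/-. The 95% Poisson interval of the IgG level, 10.7 to 63.2 CPM, holds both. The 3 SMN immunoprecipitates, also labelled Smn+/-, stood higher at 159, 97.5 and 143 CPM. Genotype and protocol differ together in these comparisons. The counts cover the whole transcript and not the altered stretch alone, so they do not check the genotype labels.

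**Figure D1:**
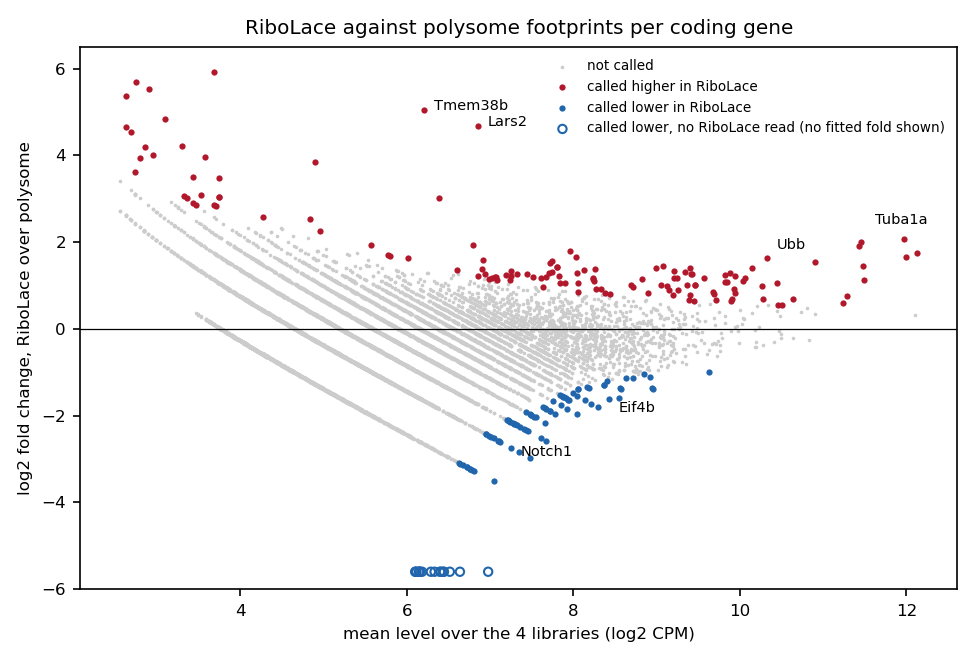
Log2 fold change of RiboLace over polysome (vertical axis) against the mean level over the 4 libraries in log2 CPM (horizontal axis), 1 point per gene tested, with the 142 genes called higher in red and the 100 called lower in blue. Open circles at the bottom are the 17 lower genes with no RiboLace read, whose fitted fold is not shown; the diagonal bands are genes with the same small number of RiboLace reads.

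The tubulins, the subunits of microtubules, stood highest of the gene lists with at least 5 genes tested. Of 13 alpha- and beta-tubulins, 8 were called higher and 0 lower, 61.5% against 1.31% of all genes, with a median of 1.46 on the log2 scale against -0.29 over all genes. The tubulins named below are among the 195 genes with the highest means, of which 26.67% were higher, with a median of 0.10. How much of the tubulin share came with level was not tested. Summed over the list, tubulins made up 53960 and 56330 CPM of the coding total in RiboLace, against 18640 and 16270 CPM in polysomes. Tubb5, a beta-tubulin of dividing and young cells, had 6099 and 5608 CPM in RiboLace, against 2292 and 1973 CPM in polysomes, a log2 ratio of 1.46 ± 0.14 SE (adjusted p = 1.63e-22). Tubb3, the neuron-specific beta-tubulin, had 5450 and 4811 CPM in RiboLace, against 2527 and 2164 CPM in polysomes, a log2 ratio of 1.13 ± 0.14 SE (adjusted p = 1.31e-12). In both genes each RiboLace library was above each polysome library. The alpha-tubulins Tuba1a, Tuba1b and Tuba1c lay between 1.91 and 2.06. Coding regions of tubulins are nearly identical and may hold the same reads, so values of single tubulins, the count of 8 and the summed CPM are all uncertain to that extent.

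Growth cone proteins followed the tubulins, while most microtubule-associated proteins were not called. Of 18 stathmins and growth cone proteins 8 were higher and 0 lower, with a median of 0.62. That share, 44.4%, stood beside 3.44% of all genes with a mean of at least 100 CPM and 26.67% of the 195 with the highest means. How much of it came with level was not tested. Stmn2, a tubulin-binding protein of growing axons, had 2033 and 2019 CPM in RiboLace, against 919 and 813 CPM in polysomes (log2 ratio 1.23 ± 0.17 SE, adjusted p = 4.67e-11). The other stathmins called were Stmn1 at 1.46 and Stmn3 at 1.28. Basp1, a membrane-bound growth cone protein, was higher by 0.99, the collapsin response mediators Dpysl2 and Dpysl3 by 0.76 and 0.69, and Uchl1, a deubiquitinase abundant in neurons, by 1.17. Of 21 microtubule-associated proteins 1 was called, Mapt, which encodes tau and had 1146 and 972 CPM in RiboLace, against 606 and 542 CPM in polysomes (log2 ratio 0.90 ± 0.20 SE, adjusted p = 7.71e-04). Map1b, the most read gene of that list, had 5040 and 5309 CPM in RiboLace, against 4331 and 3956 CPM in polysomes, and was not called (log2 ratio 0.32 ± 0.15 SE, adjusted p = 0.280). Whether Mapt and Map1b differ from each other was not tested.

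Among actins and actin-binding proteins, 5 of 37 were higher and 0 lower, with a median of 0.08. They were the cytoplasmic actins Actb and Actg1, the actin-severing protein Cfl1 and the monomer-binding thymosins Tmsb4x and Tmsb10. The share higher was 13.5%, beside 3.44% of all genes with a mean of at least 100 CPM. Acta1, a muscle actin outside this list, was also called, at 1.20 (SE 0.33, adjusted p = 0.0222) from 16 and 9 RiboLace reads. Actb had 4715 and 3913 CPM in RiboLace, against 1597 and 1370 CPM in polysomes (log2 ratio 1.55 ± 0.14 SE, adjusted p = 3.22e-24). Cfl1 had 2033 and 1770 CPM in RiboLace, against 856 and 752 CPM in polysomes (log2 ratio 1.25 ± 0.17 SE, adjusted p = 4.22e-11). Actg1 was higher by 1.40 and Tmsb4x by 1.65. Coding regions of actins are much alike and may hold the same reads. Values of single actins, the count of 5 and the summed level given below are uncertain to that extent. Of 17 spectrins, ankyrins and giant linkers 1 was called, Sptan1, a spectrin with a coding region of 7434 bases, at 1.02 (SE 0.22, adjusted p = 4.59e-04). None of 24 kinesin and dynein motor genes and none of 11 myosins passed the edgeR test, nor DESeq2's, with 4 and 3 higher and 0 lower at an unadjusted edgeR p under 0.05. Dync1h1, the dynein heavy chain, stood at -0.21 (SE 0.19) and Myh10, a nonmuscle myosin, at 0.60 (SE 0.29).

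**Figure D2:**
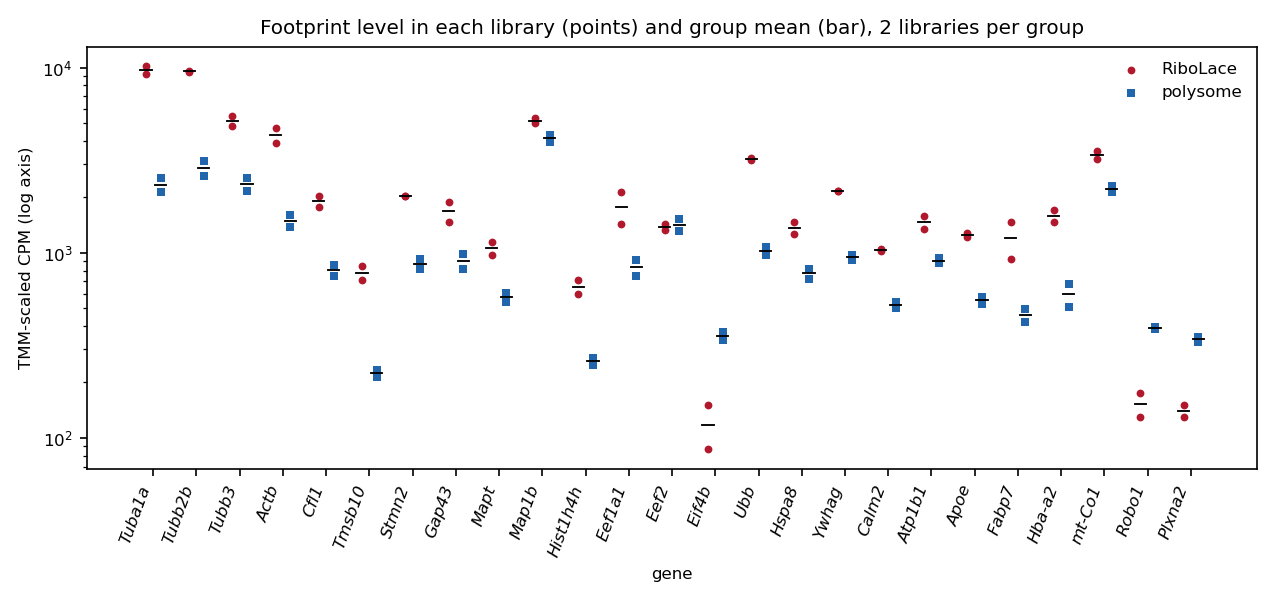
TMM-scaled CPM (log axis) of 25 genes in each RiboLace library (red circles, left) and each polysome library (blue squares, right); bars are group means, 2 libraries per group. The RiboLace points lie above the polysome points for the tubulins, Actb and Ubb, level with them for Eef2, and below them for Eif4b, Robo1 and Plxna2.

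Histones were the largest group of higher genes. Of 74 core and linker histone genes tested, 24 were higher and 0 lower, with a median of 0.90. That share, 32.4%, stood beside 1.31% of all genes and 3.44% of genes with a mean of at least 100 CPM. Hist1h4h, which encodes histone H4, had 714 and 598 CPM in RiboLace, against 270 and 248 CPM in polysomes (log2 ratio 1.35 ± 0.24 SE, adjusted p = 1.79e-06). Hist1h2bj, an H2B gene, had 324 and 349 CPM in RiboLace, against 111 and 112 CPM in polysomes (log2 ratio 1.59 ± 0.32 SE, adjusted p = 1.28e-04). Both genes were separated between the groups. Histone genes are copies of one another: Hist1h4b and Hist1h4f had the same 29 and 19 reads in the RiboLace libraries, so the 24 genes are not 24 separate observations.

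Calls in the machinery of translation were few and went both ways. Of all genes with a mean of at least 100 CPM, 3.44% were higher and 2.79% lower. Lists with 1 call among 24 or 33 genes are near those shares, so their single calls say little about the class. Eef1a1, which brings charged tRNA to the ribosome, had 1428 and 2119 CPM in RiboLace, against 915 and 750 CPM in polysomes (log2 ratio 1.08 ± 0.17 SE, adjusted p = 1.01e-07). Eef1a2, its neuronal and muscle paralog, had 1103 and 897 CPM in RiboLace, against 1011 and 940 CPM in polysomes (log2 ratio 0.05 ± 0.20 SE), and Eef2, the translocase, stood at -0.04 (SE 0.19). The RiboLace and polysome libraries overlapped for Eef1a2 and Eef2 and not for Eef1a1. Npm1, a nucleolar chaperone encoded by a message of the same terminal oligopyrimidine class, was higher by 1.20 (SE 0.33, adjusted p = 0.0234). Thus 2 of 15 genes of this list were called (13.3%). None of 48 large-subunit and none of 34 small-subunit ribosomal protein genes was called by edgeR, with medians of 0.28 and 0.18. DESeq2 called 0 of them too, and 6 and 5 were higher at an unadjusted edgeR p under 0.05, with 0 lower. Rpl4 stood at -0.28 (SE 0.25) and Gnb2l1, which encodes RACK1, at 0.40 (SE 0.31). Of 33 initiation factors 1 was lower and 0 higher, with a median of -0.42. It was Eif4b, a cofactor of the helicase that unwinds mRNA leaders, with 86.5 and 150 CPM in RiboLace, against 371 and 340 CPM in polysomes (log2 ratio -1.61 ± 0.40 SE, adjusted p = 4.92e-03), resting on 4 and 6 RiboLace reads. Of 24 aminoacyl-tRNA synthetases 1 was higher and 0 lower, with a median of -0.28 and 7 above 0. It was the mitochondrial leucyl enzyme Lars2, with 1579 and 1645 CPM in RiboLace, against 68.1 and 59.2 CPM in polysomes (log2 ratio 4.67 ± 0.20 SE, adjusted p = 1.79e-118).

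The largest differences among higher genes with a mean log2 CPM of at least 5, predicted genes passed over, were those of Tmem38b, an ion channel gene of the endoplasmic reticulum, Lars2 and Tmem245, a gene for a membrane protein. Tmem38b had 1125 and 1371 CPM in RiboLace, against 37.2 and 37.2 CPM in polysomes (log2 ratio 5.05 ± 0.24 SE, adjusted p = 9.92e-92). Tmem245 had 606 and 474 CPM in RiboLace, against 71.2 and 64.6 CPM in polysomes (log2 ratio 3.01 ± 0.30 SE, adjusted p = 5.51e-21). No library of one group overlapped the other in these 3 genes. Scaled to the coding total, the IgG library had 634 CPM for Lars2 and 290 CPM for Tmem38b, between the groups in both. Mitochondrial rRNA also took a larger share of reads in RiboLace (4.41% and 5.08%) than in polysomes (0.13% and 0.12%), and so did annotated rRNA genes. Whether reads of such RNAs were counted on Lars2, Tmem38b or Tmem245 was not tested.

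Genes for signalling adaptors, calmodulin and polyubiquitin were higher in RiboLace; the 14-3-3 and calmodulin families were picked after their values were seen. Of 6 genes for 14-3-3 proteins, adaptors that bind phosphorylated partners, 5 were higher, from 0.67 for Ywhab to 1.18 for Ywhag. Of the 195 genes with the highest means 26.67% were higher, and the share of this family was not matched for level. Ywhag had 2141 and 2144 CPM in RiboLace, against 978 and 911 CPM in polysomes. The remaining member, Ywhaq, stood at 0.33 (SE 0.30, adjusted p = 0.637). Calm2 and Calm3, which encode the calcium sensor calmodulin, were higher by 0.98 (SE 0.20) and 0.82 (SE 0.18). Of 37 ubiquitin and proteasome genes 2 were higher (5.4%, beside 3.44% of all genes with a mean of at least 100 CPM) and 0 lower, among them the polyubiquitin gene Ubb. It had 3158 and 3265 CPM in RiboLace, against 1078 and 976 CPM in polysomes (log2 ratio 1.65 ± 0.15 SE, adjusted p = 3.40e-25). Among 25 cytosolic chaperones 3 were higher, 12% beside the same 3.44%. They were the constitutive Hsp70 gene Hspa8 at 0.81 and the Hsp90 genes Hsp90aa1 and Hsp90ab1 at 0.65 and 0.55. Of 34 chaperones and translocon genes of the endoplasmic reticulum 1 was lower, the disulfide isomerase Pdia4 at -1.89 (SE 0.51) from 4 and 1 RiboLace reads.

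Of 20 sodium, calcium and proton pump genes, 2 were higher and 1 lower, with a median of 0.07. The share higher was 10%, beside 3.44% of all genes with a mean of at least 100 CPM. Atp1b1, a beta subunit of the sodium-potassium pump, had 1579 and 1346 CPM in RiboLace, against 935 and 879 CPM in polysomes, without overlap (log2 ratio 0.70 ± 0.18 SE, adjusted p = 9.85e-03).

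At the synapse, 2 of 41 vesicle and release genes were higher, the vesicle GTPase Rab3a by 1.15 (SE 0.24) and the vesicle membrane protein Syp by 0.79 (SE 0.20). That share, 4.88%, was near the 3.44% of all genes with a mean of at least 100 CPM. None of 44 receptors and channels was called by edgeR, and their median was -0.19, with 2 higher and 6 lower at an unadjusted p under 0.05 and 1 called higher by DESeq2. Gabbr1, a GABA-B receptor subunit, stood at 0.03 (SE 0.27). In energy metabolism 3 of 77 nuclear genes of oxidative phosphorylation were higher, 3.90% beside 3.44% of all genes with a mean of at least 100 CPM, namely the ATP synthase subunits Atp5a1 at 0.84 and Atp5b at 0.64 and the cytochrome oxidase subunit Cox8a at 0.84. Of the 13 mitochondrially encoded proteins, made on mitochondrial ribosomes, 1 was higher (7.69%, beside the same 3.44%). It was mt-Co1, with 3201 and 3540 CPM in RiboLace, against 2292 and 2132 CPM in polysomes (log2 ratio 0.60 ± 0.15 SE, adjusted p = 7.85e-03). None of 17 glycolytic enzymes and none of 20 genes of cholesterol synthesis was called by edgeR, with Pkm and Hmgcs1 both at 0.30. At an unadjusted p under 0.05, 3 glycolytic genes were higher and 1 lower, and 4 cholesterol genes were lower; DESeq2 called 2 of the glycolytic genes higher and 0 cholesterol genes.

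Among RNA-binding proteins 2 of 60 were higher and 0 lower, 3.33% beside 3.44% of all genes with a mean of at least 100 CPM. Hnrnpa2b1, which binds and transports mRNA, had 865 and 1147 CPM in RiboLace, against 521 and 473 CPM in polysomes, without overlap (log2 ratio 1.01 ± 0.20 SE, adjusted p = 0.0001). Of 33 genes on the motor neuron disease list 4 were higher (12.1%, beside the same 3.44%) and 0 lower, among them Hnrnpa2b1, Stmn2 and Gap43. None of 17 tested genes for the SMN complex and Sm proteins was called by edgeR, and their median was 0.01, with 1 higher at an unadjusted p under 0.05 and 0 called by DESeq2. Snrpn, a neuronal Sm protein, stood at 0.54 (SE 0.24, adjusted p = 0.237).

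Most genes lower in RiboLace rested on few RiboLace reads. Of the 100, 17 had no RiboLace read, 36 had 1 to 3, 31 had 4 to 9 and 16 had at least 10. Robo1, an axon guidance receptor for Slit, had 130 and 175 CPM in RiboLace, against 396 and 386 CPM in polysomes (log2 ratio -1.38 ± 0.36 SE, adjusted p = 0.0125). Plxna2, a semaphorin receptor, had 130 and 150 CPM in RiboLace, against 352 and 327 CPM in polysomes (log2 ratio -1.29 ± 0.38 SE, adjusted p = 0.0364). These 2 were the called genes among 57 adhesion and guidance genes, a share near that of all genes with a mean of at least 100 CPM. Of 9 plexins, a family picked after its values were seen, 2 were lower, Plxna2 and Plxnd1 at -1.64 (SE 0.46). Among all genes with a mean of at least 100 CPM 2.79% were lower. Notch1, the receptor that keeps neural progenitors from differentiating, had 21.6 and 24.9 CPM in RiboLace, 1 read each, against 126 and 178 CPM in polysomes (log2 ratio -2.74 ± 0.71 SE, adjusted p = 9.79e-03). The splicing factor Sf3a1 stood at -2.58 and the Wnt pathway regulator Amer2 at -2.84. Mb21d2 had no RiboLace read and 125 and 130 CPM in polysomes, at least 3.6-fold lower in RiboLace when 3 counts are allowed for the RiboLace pair together (adjusted p = 4.09e-04). By the same bound the adaptor Gab1 was at least 2.84-fold and the mismatch repair gene Msh6 at least 2.59-fold lower.

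**Figure D3:**
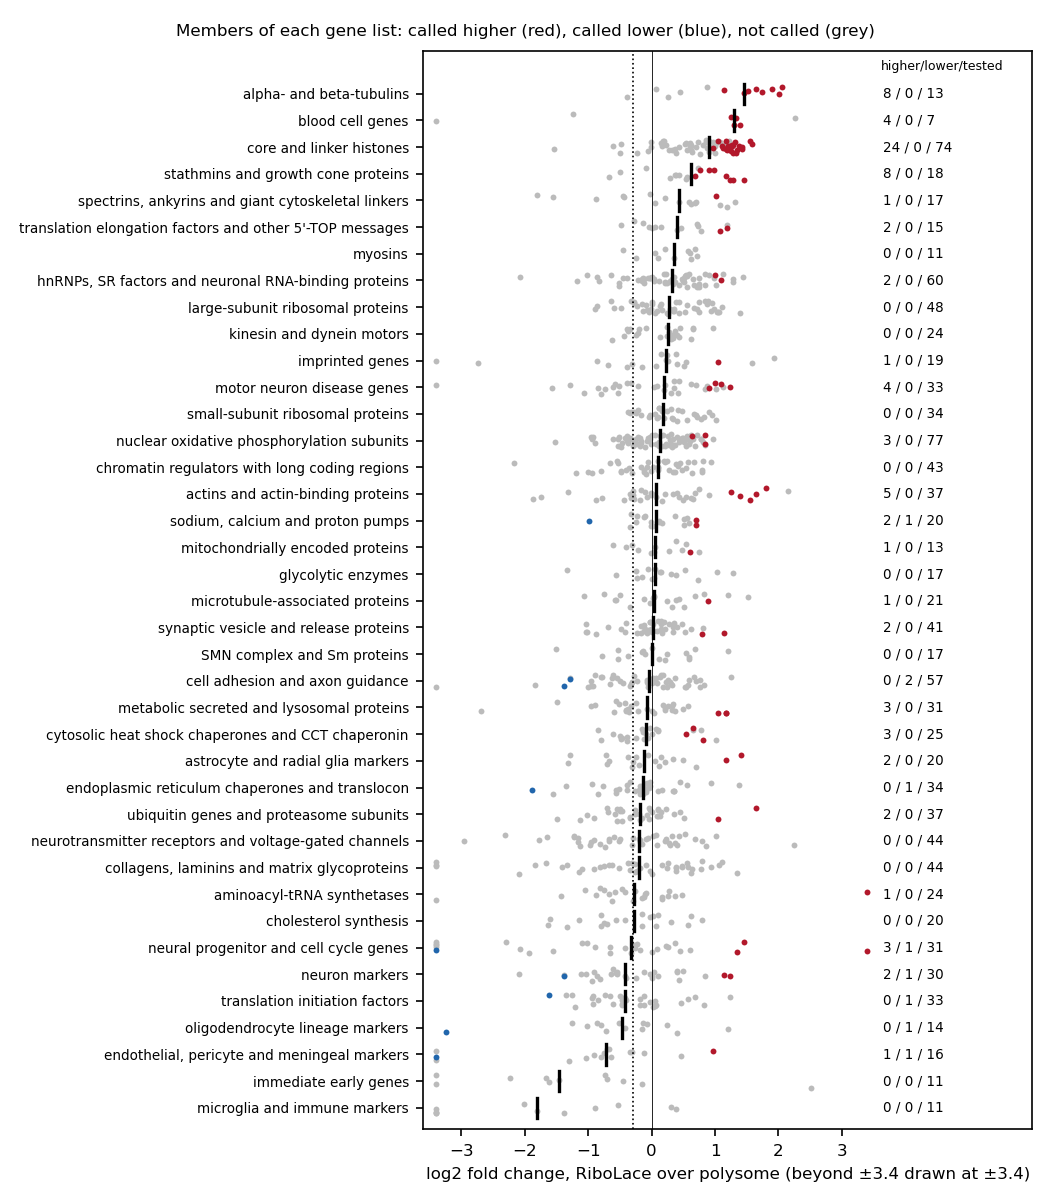
Log2 fold change of RiboLace over polysome for each tested member of the gene lists, 1 row per list ordered by its median (black bar), with members called higher in red, lower in blue and not called in grey; the dotted line is the median of all genes tested, -0.29. Tubulins, blood cell genes and histones have medians of 1.46, 1.30 and 0.90, and microglia markers have the lowest at -1.81 with 0 called. Of the 11 microglia markers tested, 2 had at least 10 RiboLace reads.

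Markers of the cell types in brain were read from these lists too. Both groups came from the same tissue, genotype and age, so a marker difference need not reflect cell numbers. The parts of cell content, RNA per cell, ribosome capture and low read counts were not tested. Shares higher were 6.67% of neuron, 10% of astrocyte and radial glia, and 6.25% of vascular and meningeal markers. Among all genes with a mean of at least 100 CPM 3.44% were higher. The 30 neuron markers had a median of -0.42, with 11 above 0. Of them 2 were higher, Tubb3 and Stmn2, and 1 was lower, the GABA-synthesising enzyme Gad2, with 108 and 99.7 CPM in RiboLace, against 263 and 279 CPM in polysomes (log2 ratio -1.38 ± 0.42 SE, adjusted p = 0.0474). The 20 astrocyte and radial glia markers had a median of -0.13, with 9 above 0, and 2 were higher, the fatty acid-binding protein Fabp7 by 1.41 (SE 0.19) and the lipid carrier Apoe by 1.17 (SE 0.19). The oligodendrocyte list had a median of -0.46, with 3 of 14 above 0, and 1 lower gene, the transcription factor Sox8, with 1 RiboLace read. None of 11 tested microglia markers was called by edgeR or DESeq2, and 4 were lower at an unadjusted p under 0.05. Their summed level was 355 and 508 CPM of the coding total in RiboLace, against 753 and 752 CPM in polysomes, with 6 of the 16 listed genes at 0 RiboLace reads. The 16 vascular and meningeal markers had a median of -0.73, with 2 above 0, and 1 was higher and 1 lower. Ptgds, a prostaglandin synthase of the meninges, was higher by 0.97, and Mfsd2a, a lipid transporter of brain capillaries, had no RiboLace read and was at least 2.39-fold lower. The low medians lean on genes with few RiboLace reads. With at least 10 RiboLace reads, medians were -0.18 for 22 neuron, 0.05 for 15 astrocyte and -0.16 for 5 oligodendrocyte markers. They were -0.29 for 2 microglia and -0.35 for 3 vascular markers, beside 0.038 over all 2111 such genes. That cut favours genes high in RiboLace.

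Globins from blood were higher in RiboLace. Of 7 blood cell genes tested, 4 were higher and 0 lower: Hba-a1, Hba-a2, Hbb-bs and Hbb-bt, between 1.26 and 1.40. That share, 57.1%, stood beside 3.44% of all genes with a mean of at least 100 CPM and 26.67% of the 195 with the highest means. Hba-a2 had 1471 and 1695 CPM in RiboLace, against 508 and 681 CPM in polysomes (SE 0.18, adjusted p = 1.16e-12), without overlap. Pairs of globin genes are near copies and may hold the same reads. The blood list summed to 5350 and 6451 CPM of the coding total in RiboLace, against 2024 and 2714 CPM in polysomes, and 5 of the 12 listed genes in the table had no RiboLace read. The part of blood content in the other results was not tested.

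The IgG immunoprecipitate shows what levels a pull-down without a ribosome ligand gave, although its genotype and protocol differ from RiboLace and it is a single library. Tubulins summed to 59580 CPM of the coding total in IgG, beside 53960 and 56330 CPM in RiboLace and 18640 and 16270 CPM in polysomes. Actins and actin-binding proteins summed to 17680 CPM in IgG, beside 15990 and 15490 CPM in RiboLace and 9340 and 8533 CPM in polysomes. Both lists therefore stood in IgG as high as or higher than in RiboLace. Histones did not: they summed to 11360 CPM in IgG, beside 21420 and 19710 CPM in RiboLace and 11540 and 11050 CPM in polysomes. Blood cell genes summed to 1727 CPM in IgG, below both RiboLace and both polysome libraries. Spectrins and giant linkers went the other way, with 17590 CPM in IgG, beside 3616 and 3606 CPM in RiboLace and 2887 and 2732 CPM in polysomes. Mitochondrially encoded proteins summed to 3000 CPM in IgG, beside 8548 and 11450 CPM in RiboLace and 8737 and 8659 CPM in polysomes. Of the 122 higher genes with at least 10 RiboLace reads, the IgG level was at or above the nearer RiboLace library in 18, between the groups in 73 and at or below the nearer polysome library in 31. Of the 83 lower genes with a polysome mean of at least 100 CPM, it was at or below the nearer RiboLace library in 22, between in 54 and at or above the nearer polysome library in 7. The part of unspecific binding in the differences between RiboLace and polysomes was not tested.

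**Figure D4:**
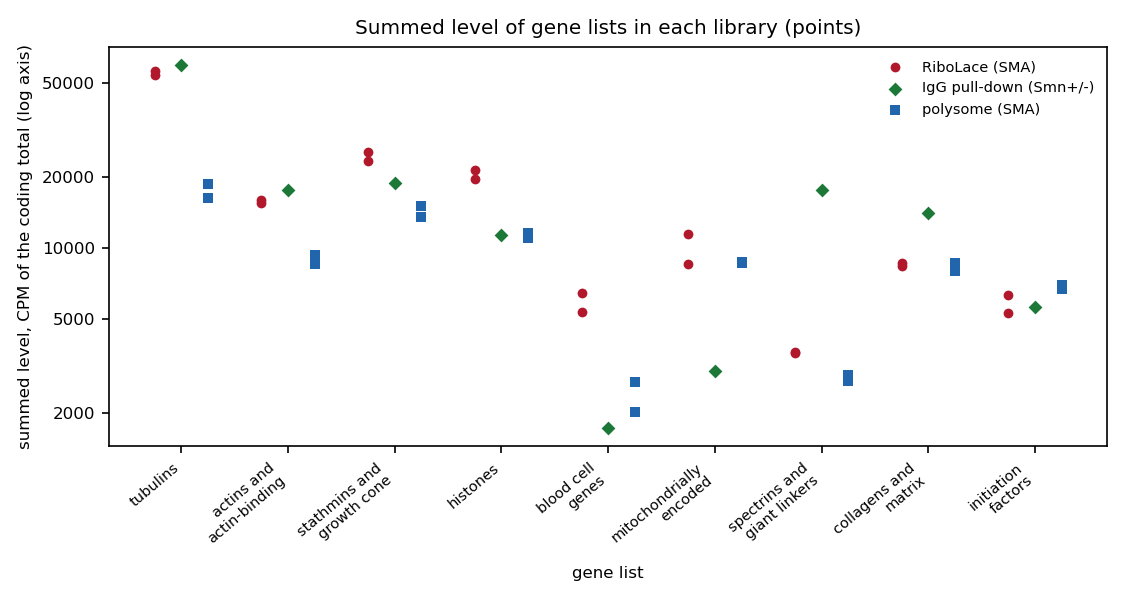
Summed level of 9 gene lists in CPM of the coding total (log axis) in each RiboLace library (red circles), the IgG library (green diamond, Smn+/- brain) and each polysome library (blue squares). The IgG point lies at the RiboLace level for tubulins, at the polysome level for histones, and above both for spectrins and giant linkers.

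Genes called higher had short coding regions. Their median coding length was 699 bases, against 1851 bases for genes called lower and 1395 bases for all genes tested. Among the 2937 genes with a mean of at least 100 CPM split into 5 classes of coding length, the shortest class (102 to 690 bases) held 59 higher and 7 lower genes of 594. The longest class (2745 to 22062 bases) held 3 higher and 22 lower genes of 588. The median log2 fold change was 0.12 in the shortest class and -0.43 in the longest. Without the tubulin, actin, histone, stathmin and blood cell lists, a split added after the values were seen, the shortest class still held 26 higher genes of 562 and the longest 2 of 561. Higher calls also fell with length of the 3' untranslated region (UTR), from 47 of 577 genes in the shortest class to 4 of 577 in the longest. Lower calls there were 14 and 15. By 5' UTR length, higher calls were 28 of 571 and 12 of 567. Without the same lists they were 17 and 3 of 554 for the 3' UTR, and 4 of 554 and 9 of 547 for the 5' UTR. Which of these lengths goes with the calls was not tested. Chromatin regulators with long coding regions held 0 calls among 43 genes by edgeR or DESeq2, with a median of 0.10 and Nsd1 at -0.66 (SE 0.33), and at an unadjusted p under 0.05 2 were higher and 4 lower. The 44 matrix genes held 0 calls by either tool, with a median of -0.21 and Sparcl1 at 0.39 (SE 0.17), and at an unadjusted p under 0.05 4 were higher and 3 lower. Genes of one length class are not independent replicates, and no test was made of the trend.

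**Figure D5:**
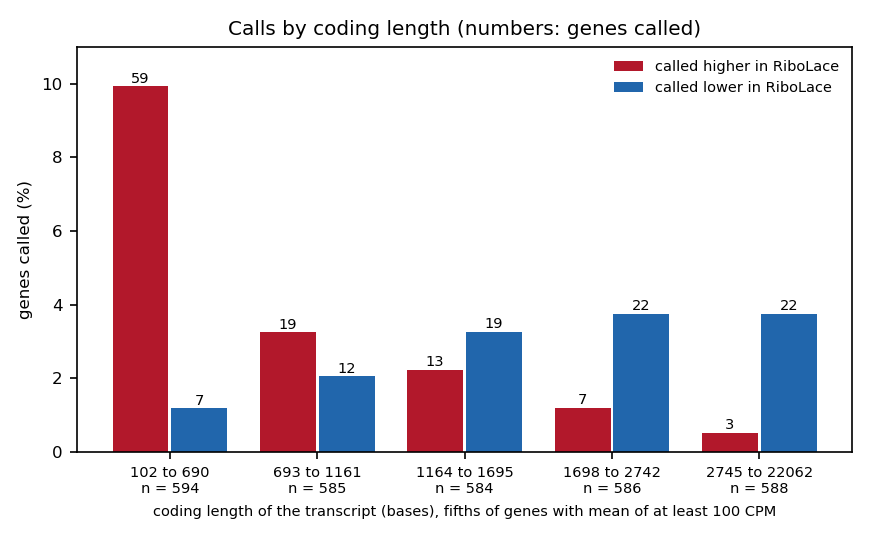
Percent of genes called higher (red, left) and lower (blue, right) in RiboLace in 5 classes of coding length in bases, with about equal numbers of genes, for the 2937 genes with a mean of at least 100 CPM; numbers over the bars are genes called. Higher calls go down with length, with 59 genes in the shortest class and 3 in the longest, and lower calls go up, with 7 and 22.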

How the data were processed

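Raw read counts of 8 libraries for every transcript were deposited in 1 table, beside lengths of the UTRs and the coding region (per the file headers). The authors used Trimmomatic 0.36, Bowtie2 2.2.6 and SAMtools with the GRCm38.p4 build, per the submitters' processing notes. The treatment of reads that match more than one transcript or gene is not stated there. No column of another series was used.

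Counts of 1 coding transcript per gene were compared in R 4.3.3 by the quasi-likelihood F test of edgeR 4.0.16 (robust, two-sided, TMM, filterByExpr set to 10 reads) on the 4 SMA libraries, and genes with an adjusted p under 0.05 were called. The SE was taken as the absolute log2 ratio over the square root of F. An exact permutation test of 2 against 2 libraries cannot go below p = 0.333. The script was tested on simulated data with the depths of these 4 libraries. Of 50 genes each, it called 7 set 2-fold higher, 13 set 2-fold lower, 39 set 4-fold higher and 14 set 4-fold lower. Of 10002 unchanged genes it called 6. Many true differences of these sizes would thus be missed. Alternatives used DESeq2 1.42.0 and limma 3.58.1 (voom), other scalings and filters, and left out single libraries. Floors cover counting error only.

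The comparison and the 39 gene lists were chosen with earlier results of these data known. Genes were named by rule: for called genes whose groups do not overlap and whose mean level reaches 5 in log2 CPM, the largest fold changes and smallest adjusted p, and per list its called and its most read genes, predicted genes passed over. Uncalled genes named are mostly the most read gene of a list with no call. Eef2, Eef1a2, Ywhaq and Map1b, and the families for 14-3-3, calmodulin, actins (Acta1) and plexins, were chosen after values were seen. Some genes that the rule names are not reported here.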

Additional observations from a re-analysis of the deposited data

Results flagged for a closer look

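Reads outside coding genes took a larger share in both RiboLace libraries than in the polysome libraries and the IgG library for 7 RNA classes, which the gene comparison does not use. Mitochondrial rRNA averaged 4.75% of reads in RiboLace (4.41% and 5.08%), against 0.13% and 0.12% in polysomes and 3.38% in IgG. Pseudogenes averaged 10.4% in RiboLace (10.4% and 10.5%), against 8.35% and 8.15% in polysomes and 9.32% in IgG. Annotated miRNA genes averaged 1.96% in RiboLace, against 0.074% and 0.075% in polysomes and 0.829% in IgG. The class misc_RNA averaged 1.13% in RiboLace, against 0.020% and 0.021% in polysomes. Mitochondrial tRNA averaged 0.27% in RiboLace, against 0.023% and 0.021% in polysomes. Annotated rRNA genes averaged 0.0926% in RiboLace, against 0.00011% and 0.00012% in polysomes and 0.00997% in IgG, and the pooled class of other minor RNA types averaged 2.42%, against 0.784% and 0.815% in polysomes. Shares are of reads over 1 transcript per gene, and the causes were not tested.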

How the results depend on the processing

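The main counts were 142 higher and 100 lower. Other settings gave, higher and lower, 0 and 0 with limma-voom, 258 and 75 with a minimum count of 50, 265 and 90 over genes deep enough to be read in RiboLace, 63 and 1 with all 8 libraries in the fit, 243 and 51 with counts summed over coding transcripts, and 723 and 562 with noncoding genes included. The deep set kept genes with at least 10 RiboLace reads or a polysome mean of at least 100 CPM. A gene with a low polysome level entered it only through its RiboLace reads, so its 265 higher calls lean on that selection. Lower calls alone moved to 6 with DESeq2, 63 with DESeq2 size factors in edgeR and 21 with the RiboLace libraries summed and counted as 1, a setting added after the data were seen. Leaving out 1 library gave 31 to 111 higher and 1 to 72 lower calls. The labels number the replicates but state no pairing, so the main fit took none. Deviations of same-numbered RiboLace and polysome libraries had r = 0.0659 over 2385 genes. This value cannot exclude a pairing, because the RiboLace libraries differed from each other by little more than counting noise (chi-square per gene 1.05). With the replicate block 58 genes were higher and 0 lower.

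Over 17 alternatives, the 100 called genes named or set beside them gave 1159 values past the threshold and 486 short of it in the same direction, and 0 in the opposite direction. List medians lay between 1.26 and 1.72 for tubulins, 0.59 and 1.14 for histones, 0.42 and 0.90 for stathmins and growth cone proteins, -0.63 and -0.19 for initiation factors, -0.27 and 0.49 for actins and actin-binding proteins and -0.08 and 1.6 for blood cell genes, and the median over all genes between -0.715 with no filter and 0.02 without polysome replicate 2. Genes that were not called changed sign in some settings: Smn1 to 0.247 with summed transcripts, Dync1h1 to 0.02 and Jund to 0.082 with a minimum count of 50, and Jund to 0.06 over the deep genes. Eef1a2 went to -0.046 with no filter and -0.157 with noncoding genes. Gabbr1 went to -0.068 with no filter, -0.011 with the transcript chosen on 4 libraries and -0.179 with noncoding genes. Eef2 went to 0.032 with DESeq2, 0.007 with library totals, 0.035 with size factors, 0.191 with a minimum count of 50, 0.169 over the deep genes, 0.011 with all 8 libraries, 0.067 with summed transcripts and 0.05 with RiboLace summed. Leaving out 1 library moved Smn1 between -8.433 (without RiboLace replicate 1, which leaves no RiboLace read) and 0.304, Eef1a2 between -0.173 and 0.115, Eef2 between -0.153 and 0.071, and Gabbr1 between -0.055 and 0.099. The causes were not tested. Of the genes tested, 8696 had under 10 RiboLace reads, and 779 had none.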

Other observations

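Immediate early genes, which neurons switch on after activity, were little read in RiboLace: the 11 tested summed with the rest of the list to 439 and 432 CPM of the coding total in RiboLace, against 693 and 705 CPM in polysomes, and 0 were called by edgeR or DESeq2, with 2 lower at an unadjusted edgeR p under 0.05. Jund, the most read of them, had 173 and 224 CPM in RiboLace, against 219 and 217 CPM in polysomes. Among secreted proteins the protease inhibitor Cst3 was higher by 1.18 (SE 0.19, adjusted p = 1.11e-07), with 1406 and 1022 CPM in RiboLace, against 563 and 521 CPM in polysomes. Nnat, an imprinted gene for a small membrane protein, was higher by 1.05 (SE 0.25, adjusted p = 3.92e-03). Of 31 tested progenitor and cell cycle genes 3 were higher, Stmn1, the chromatin protein Hmgb1 and the thymidylate synthase Tyms, and 1 was lower, Msh6. The share higher was 9.68%, beside 3.44% of all genes with a mean of at least 100 CPM. Hmgb1 had 216 and 249 CPM in RiboLace, against 87.0 and 93.3 CPM in polysomes. Tyms rested on 4 and 6 RiboLace reads, against 13 and 15 polysome reads (8.19 and 6.73 CPM). It passed the filter on reads only through the RiboLace libraries, so its higher call was selected in advance and gives no support.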
